A study of Mus musculus with 4 samples.

Results

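To describe the immediate-early transcription factors in allergic airway inflammation, the expression of 10 genes was followed in lung tissue of both genotypes, with and without OVA. The genes were Fos, Fosb, Jun, Junb, Egr1, Egr2, Egr3, Nr4a1, Atf3 and Ier2, and they were 10 of the 41079 genes in the deposited table. They were picked by name, after their levels in these libraries had been seen, so the levels below are a description and no test was made of them. All 10 exceeded a minimum of 10 counts in every library.

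RNA was measured by RNA-seq in 4 lung libraries, with 1 library per genotype (WT or Rab44-KO) and condition (normal or OVA-induced), for a total of 4 groups. The WT and Rab44-KO animals were female littermates of 8 to 14 weeks, and the knockout line had been made by CRISPR/Cas9 editing on a C57BL/6 background. OVA-induced mice received ovalbumin (OVA), the egg-white protein used as a model allergen, with the adjuvant alum into the peritoneum on days 0, 7 and 14. They were then challenged with 100 μg of OVA in 50 μL through the nose for 4 days. Their lungs were collected on day 21, after the last challenge. The normal libraries are labelled as untreated, while the protocol also names a saline challenge, so whether they shared the sensitization is not given in the sources used here, nor is the number of mice behind each library. With 1 library per group no replicate error could be had: the intervals below are exact 95% intervals that cover counting error only, and differences are given as values without a p-value.

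Immediate-early genes are switched on within minutes of a growth factor, calcium, stress or cytokine signal, from promoters that already carry serum response factor and CREB, and need no new protein synthesis. FOS-family and JUN-family proteins pair as the AP-1 dimer, EGR proteins bind GC-rich sites through zinc fingers, and NR4A1 is an orphan nuclear receptor that follows antigen and growth factor receptor signals. Their mRNAs are short-lived, partly because AU-rich elements in the 3′ untranslated region recruit decay factors. In lung they are expressed in endothelium, smooth muscle, epithelium and leukocytes, and handling of tissue is also known to induce them.

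Most members were compact genes, apart from Nr4a1 at 20527 bases with 8 exons and Atf3 at 47744 bases. Their median span in the GRCm38 annotation was 5287 bases against 17425 bases over 21938 protein-coding genes, and their median number of exons was 2 against 6. Fos was located at chr12:85473890-85477273, Fosb at chr7:19302696-19310051, Jun at chr4:95049034-95052222, Junb at chr8:84974484-84978718, Egr2 at chr10:67535475-67542188, Egr3 at chr14:70077203-70082614, Nr4a1 at chr15:101254269-101274795, Atf3 at chr1:191170296-191218039 and Ier2 at chr8:84661331-84662852. Jun overlapped the antisense gene Junos, Junb overlapped Prdx2 on the opposite strand, and Atf3 overlapped Gm24748, a noncoding RNA gene on the opposite strand. The kit kept strand, but the strand setting of the counting is not given in the sources used here. In the order normal WT and Rab44-KO, then OVA-induced WT and Rab44-KO, Junos had 130, 165, 181 and 179 counts and Prdx2 had 1966, 1827, 2333 and 1422. No stretch of 150 bases in the exons of any member occurred in another gene.

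Upstream sequence from RefSeq (GRCm38.p6) was matched for 7 of the 10 members, with no entry for Egr1, Egr3 and Ier2. The 250 bases before the start are shown for the 5 members whose Rab44-KO and WT libraries differed the most among the matched ones or, for Egr2, in the opposite direction. Capitals mark matches on either strand to the CRE half-site TGACG, to the variant TGCGTCA that overlaps the half-site (added after the sequences had been read), and to the CArG box, the element bound by serum response factor.
Fos promoter, chr12:85473640-85473889, plus strand: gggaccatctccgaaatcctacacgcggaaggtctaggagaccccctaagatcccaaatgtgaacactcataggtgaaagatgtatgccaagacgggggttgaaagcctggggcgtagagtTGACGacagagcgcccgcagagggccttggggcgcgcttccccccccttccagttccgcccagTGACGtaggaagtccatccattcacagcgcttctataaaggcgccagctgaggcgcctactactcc
Fosb promoter, chr7:19310046-19310295, minus strand: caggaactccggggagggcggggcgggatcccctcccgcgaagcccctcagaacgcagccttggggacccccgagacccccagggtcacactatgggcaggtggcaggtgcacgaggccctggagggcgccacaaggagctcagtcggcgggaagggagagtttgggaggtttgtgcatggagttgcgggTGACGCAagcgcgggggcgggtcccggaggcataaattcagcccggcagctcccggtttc
Nr4a1 promoter, chr15:101266596-101266845, plus strand: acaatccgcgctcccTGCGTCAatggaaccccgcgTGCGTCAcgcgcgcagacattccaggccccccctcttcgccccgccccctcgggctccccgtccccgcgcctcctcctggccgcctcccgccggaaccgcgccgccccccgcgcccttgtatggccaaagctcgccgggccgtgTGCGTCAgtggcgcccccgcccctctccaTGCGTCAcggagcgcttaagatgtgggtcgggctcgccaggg
Egr2 promoter, chr10:67537619-67537868, plus strand: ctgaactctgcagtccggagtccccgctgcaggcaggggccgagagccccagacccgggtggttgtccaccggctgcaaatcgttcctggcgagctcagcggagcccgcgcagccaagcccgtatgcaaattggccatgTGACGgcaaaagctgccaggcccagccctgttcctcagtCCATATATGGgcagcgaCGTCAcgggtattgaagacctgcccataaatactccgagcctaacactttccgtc
Atf3 promoter, chr1:191183334-191183583, minus strand: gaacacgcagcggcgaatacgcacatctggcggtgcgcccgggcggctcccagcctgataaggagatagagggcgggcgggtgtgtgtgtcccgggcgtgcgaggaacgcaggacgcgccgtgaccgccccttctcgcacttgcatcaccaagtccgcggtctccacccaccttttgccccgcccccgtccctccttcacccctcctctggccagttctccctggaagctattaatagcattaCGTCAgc

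The CRE half-site, the core letters of the element bound by CREB and ATF proteins, was found in 6 of the 7 matched members (Fos, Fosb, Junb, Egr2, Nr4a1 and Atf3), against 19.8% of 27018 genes with a listed promoter of the same length. Member windows held 54% to 74.4% G and C, above the median of 52.4% over all promoters, and the part of base composition in these counts was not tested. TGCGTCA was found in Fosb and Nr4a1, against 2.0% of genes, and the Nr4a1 window held 4 copies. The CArG box was found in Egr2 alone, in 4 of the windows of its 5 listed starts, 3 of which overlap, against 1.62%. The EGR site GCGNGGGCG was found in Fosb and Nr4a1, against 5.33%, and the TATA letters TATAAA in Fos, against 8.93%. The full CRE TGACGTCA, the AP-1 site TGANTCA and the NR4A site AAAGGTCA were in none of the 7 windows, against 1.77%, 7.82% and 1.55%. Half-sites stood in members that were higher in the Rab44-KO libraries and in Egr2 and Atf3, which were below WT in Rab44-KO lung after OVA. A match is a description of letters and does not show that a protein was bound.

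The 3′ untranslated regions of the members held a median of 2.59 ATTTA pentamers per kb, against 1.51 over 10891 genes whose 3′ regions fell in the same range of lengths. The longer element TATTTAT was in Fos, Fosb, Jun and Atf3, or 40% of the members, against 29.3% of those genes. The Fos element is shown because Fos had the widest range of levels, with 2 overlapping pentamers in capitals.
Fos 3′ element: acgtttttattgtgttttcaATTTATTTAt

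Library depth was close to even, with 18112901 to 19910236 counts per library and 24316 to 25003 genes with a count. Counts were divided by library totals scaled with TMM factors of 0.973 to 1.02 and are given as CPM, the counts of a gene per total of reads so scaled. Rab44 itself was read at 251 counts in WT and 1 in Rab44-KO lung under normal conditions, and at 810 and 0 after OVA, where 0 allows up to 3 counts. In a whole lung, more RNA per cell and more cells of an expressing type cannot be told apart.

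In the same order of libraries, which is kept below, the members summed to 750, 1162, 584 and 971 CPM. Both Rab44-KO libraries were thus above both WT libraries. Compared per length as TPM, Jun was the most abundant member in every library, at 150 to 346 TPM, followed by Junb at 95.3 to 229 TPM. Fos, Egr1 and Ier2 formed the next group in every library, between 27.5 and 203 TPM. Nr4a1, Egr2, Atf3, Fosb and Egr3 were lower by TPM. Egr3 was the least abundant in 3 libraries at 1.31 to 2.99 TPM, while Fosb was the least abundant in OVA-induced WT lung at 2.45 TPM. These ranks depend on the gene lengths behind the deposited TPM. The implied relative length was 2.99 for Egr2 and 2.36 for Nr4a1, against 0.69 for Fos and 1.05 for Jun. The annotated transcripts of these genes, in that order, had 2965, 2553, 2108 and 3189 bases. By CPM Nr4a1 was above Fos and Egr1 in OVA-induced WT lung, at 81.0 against 27.5 and 43.8.

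**Figure D1:**
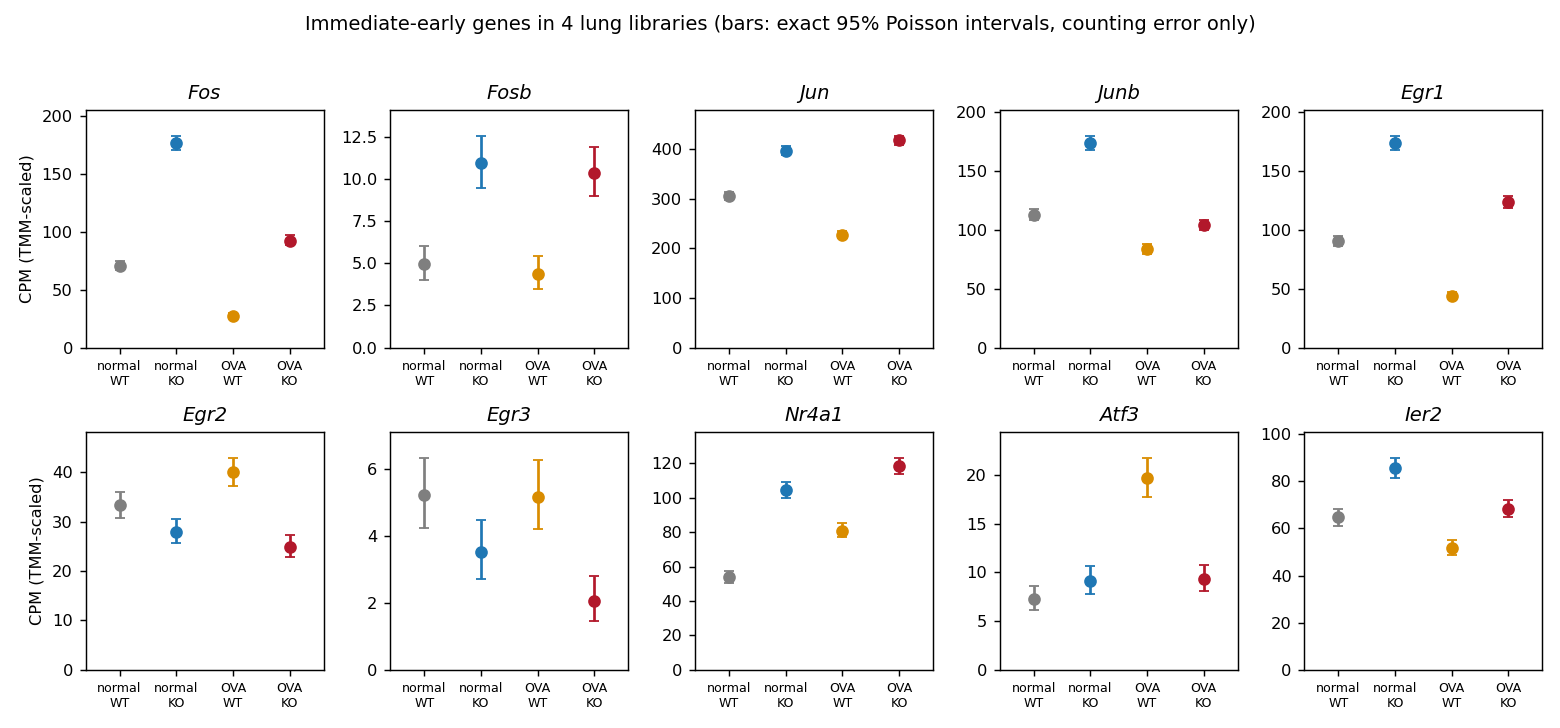
Level of each member in CPM (vertical axes, each from 0) in the 4 libraries, with exact 95% Poisson intervals that cover counting error only. Fos, Fosb, Jun, Egr1 and Nr4a1 were higher in both Rab44-KO libraries than in both WT libraries, as was Ier2 by a margin within counting error, Egr2 and Egr3 were lower in both, and Atf3 stood out in the OVA-induced WT library at 19.7 CPM.

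Fos, the inducible partner of JUN proteins in AP-1, had 1360 counts in WT and 3226 in Rab44-KO under normal conditions, and 533 and 1802 after OVA, or 70.8, 177, 27.5 and 92.4 CPM. Its highest library was 6.42 times its lowest, the widest range among the 10 members. Normal Rab44-KO was over normal WT by a log2 ratio of 1.32 (1.23 to 1.41), and OVA-induced Rab44-KO was over OVA-induced WT by 1.75 (1.61 to 1.89). Each step in the order of its 4 levels exceeded counting error.

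Fosb, the FOS relative known from its stable splice form in brain, was scarce, with 95, 200, 85 and 202 counts in the same order, or 4.95, 11.0, 4.39 and 10.4 CPM. The pair of Rab44-KO libraries stood together and so did the pair of WT libraries. Its log2 ratio of Rab44-KO over WT was 1.15 (0.79 to 1.52) in normal and 1.24 (0.87 to 1.62) in OVA-induced lung. The intervals of the ratio between the 2 Rab44-KO libraries and between the 2 WT libraries each included 1.

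Jun, the JUN-family activator that c-Jun N-terminal kinase phosphorylates, had 5877, 7238, 4402 and 8149 counts, or 306, 397, 227 and 418 CPM. It was the only AP-1 member whose highest library was OVA-induced Rab44-KO. The log2 ratio of Rab44-KO over WT was 0.37 (0.32 to 0.42) in normal and 0.88 (0.83 to 0.93) in OVA-induced lung.

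Junb, which often restrains Jun at shared target genes, had 2161, 3169, 1613 and 2024 counts, or 113, 174, 83.3 and 104 CPM. Unlike Fos and Jun, its OVA-induced Rab44-KO library lay below the normal WT library. Its log2 ratio of Rab44-KO over WT was 0.63 (0.55 to 0.71) in normal and 0.32 (0.22 to 0.41) in OVA-induced lung.

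Atf3, a stress-induced partner of JUN proteins that mostly represses inflammatory genes, had 139, 167, 381 and 182 counts, or 7.24, 9.15, 19.7 and 9.34 CPM. One library, OVA-induced WT, was high and the other 3 lay between 7.24 and 9.34 CPM. Its log2 ratio of Rab44-KO over WT was 0.34 (0.00 to 0.67) in normal and -1.07 (-1.34 to -0.82) in OVA-induced lung. It was the only member whose ratio had opposite signs in the 2 conditions.

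Egr1, a zinc-finger activator induced by growth factor, hypoxic and vascular stress, had 1740, 3167, 848 and 2408 counts, or 90.6, 174, 43.8 and 124 CPM. It followed the order of Fos, with normal Rab44-KO highest and OVA-induced WT lowest, over a 3.96-fold range. Its log2 ratio of Rab44-KO over WT was 0.94 (0.85 to 1.02) in normal and 1.50 (1.38 to 1.61) in OVA-induced lung.

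The related zinc fingers Egr2 and Egr3, which restrain T cell activation, went the other way. Egr2 had 641, 511, 776 and 486 counts, or 33.4, 28.0, 40.1 and 24.9 CPM, and Egr3 had 100, 64, 100 and 40 counts, or 5.21, 3.51, 5.16 and 2.05 CPM. Both were lower in each Rab44-KO library than in each WT library. For Egr2 the log2 ratio of Rab44-KO over WT was -0.25 (-0.42 to -0.08) in normal and -0.68 (-0.85 to -0.52) in OVA-induced lung, and for Egr3 it was -0.57 (-1.05 to -0.10) and -1.33 (-1.90 to -0.79). The 2 WT libraries did not differ beyond counting error for Egr3, nor did the 2 Rab44-KO libraries for Egr2. In OVA-induced lung the Egr2 ratio was near the median of 12 housekeeping genes, at -0.62, and 14.2% of all genes had a lower ratio. Egr2 was at -0.23 there when libraries were scaled on housekeeping genes and at -0.35 with TPM. With the trend with gene length removed it was lower, at -0.9985. Whether Egr2 differed from housekeeping genes was not tested.

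Nr4a1, the orphan nuclear receptor also called Nur77, had 1036, 1906, 1568 and 2308 counts, or 54.0, 104, 81.0 and 118 CPM. It was the only member that was higher after OVA in WT lung and also above WT in the Rab44-KO library of both conditions. Its log2 ratio of Rab44-KO over WT was 0.95 (0.84 to 1.06) in normal and 0.55 (0.46 to 0.64) in OVA-induced lung.

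Ier2, a small nuclear protein of the immediate-early response, had 1243, 1564, 1002 and 1334 counts, or 64.7, 85.7, 51.7 and 68.4 CPM. Its ratio of Rab44-KO over WT was the same in both conditions to 2 decimals, 0.40 (0.30 to 0.51) in normal and 0.40 (0.28 to 0.52) in OVA-induced lung. Normal WT and OVA-induced Rab44-KO did not differ beyond counting error.

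In normal lung, Fos and Fosb were over 2-fold higher in the Rab44-KO library and no member was over 2-fold lower, where 2.77% were over 2-fold higher and 2% lower among 18718 genes that reached 10 counts in 1 of the pair of libraries. At a minimum of 50 counts, which all members reached, the shares were 0.505% and 0.175% of 14843 genes. The median log2 ratio of the members was 0.52, against 0.00 over all those genes, and 8 of 10 members were above 0, where 50.8% of genes were. In OVA-induced lung, Fos, Fosb and Egr1 were over 2-fold higher and Egr3 and Atf3 over 2-fold lower in the Rab44-KO library, where 8.4% of 19259 genes were over 2-fold higher and 7.34% lower, or 4.90% and 5.14% at a minimum of 50 counts. The median of the members was 0.48, against -0.02 over all genes, and 7 of 10 members were above 0, where 48.1% of genes were. Neither lower member passed 2-fold when libraries were scaled on housekeeping genes or read as TPM. Egr3 was at -0.87 with housekeeping genes and -0.95 with TPM, and Atf3 at -0.62 and -0.74. With the trend with gene length removed, Atf3 was at -0.80 and Egr3 at -1.31, Jun passed 2-fold at 1.01, and Nr4a1 was at 0.29. All genes over 2-fold went from 1617 higher and 1413 lower to 3801 and 754 with housekeeping genes. The median of the members was 0.94 with housekeeping genes and 0.80 with TPM, where that of all genes was 0.44 and 0.29, and Jun was over 2-fold higher with both and Nr4a1 with housekeeping genes. Egr1 and Nr4a1 in normal lung, with intervals that reach past 1, and Jun in OVA-induced lung, at 0.88, fell just short of 2-fold, while Atf3 at -1.07 was just past it. Fosb, Egr3 and Atf3 passed 2-fold by value only, since their intervals also held smaller differences.

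Of the 10 members, 7 were higher in the Rab44-KO library in both conditions (Fos, Fosb, Jun, Junb, Egr1, Nr4a1 and Ier2), where 28.4% of 18233 genes were. Egr2 and Egr3 were lower in both, where 29.5% of genes were, and Atf3 had opposite signs, as did 42.1%. Fos and Fosb were over 2-fold higher in both, where 0.74% of genes were. These members were chosen with those ratios known, so the shares describe the list and do not test it.

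**Figure D2:**
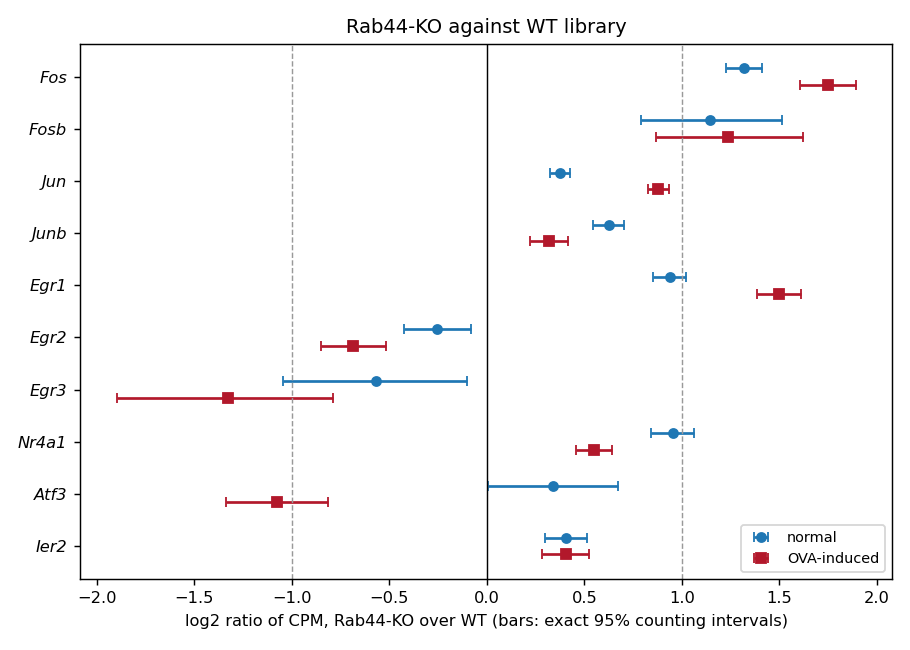
Log2 ratio of CPM of the Rab44-KO over the WT library (horizontal axis) for each member in normal (circles) and OVA-induced lung (squares), with exact 95% counting intervals and dashed lines at 2-fold. Fos and Fosb lie past 2-fold higher in both conditions, and Atf3 is the only member on opposite sides of 0.

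Between conditions, 7 of the 10 members were below 0 after OVA in each genotype, 5 of them with an interval below 0, where 50.3% of all genes were above 0 in WT and 49.1% in Rab44-KO. The 7 were not all the same genes, with Jun among them in WT and Egr2 in Rab44-KO. In WT lung Fos was at a log2 ratio of OVA-induced over normal of -1.36 (-1.51 to -1.22) and Egr1 at -1.05 (-1.17 to -0.93), while Atf3 was at 1.44 (1.16 to 1.73) and Nr4a1 at 0.59 (0.47 to 0.70). Thus 1 member was over 2-fold higher, where 8.99% of 19023 genes were, and 2 were over 2-fold lower, where 5.2% were, or 6.51% and 2.38% at a minimum of 50 counts. Jun at -0.43 and Junb at -0.43 were lower by less, Ier2 was at -0.32, and Egr2 was at 0.26, or -0.05 where libraries were scaled on housekeeping genes. The intervals of Fosb, at -0.17 (-0.61 to 0.26), and Egr3, at -0.01 (-0.43 to 0.40), included 0. The median of the members was -0.25, against 0.00 over all genes, and was -0.56 with housekeeping genes and -0.42 with TPM, where that of all genes was -0.31 and -0.16.

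In Rab44-KO lung no member was over 2-fold different between OVA-induced and normal conditions, where 6.44% of 19073 genes were over 2-fold higher and 3.85% lower, or 3.15% and 1.88% at a minimum of 50 counts. Fos was at -0.94 (-1.02 to -0.85), Egr3 at -0.77 (-1.38 to -0.18), Junb at -0.74 (-0.82 to -0.66) and Egr1 at -0.49 (-0.57 to -0.41). Nr4a1 at 0.18 (0.09 to 0.27) and Jun at 0.08 (0.03 to 0.12) were slightly above 0. Atf3, at 0.03 (-0.28 to 0.34), had no difference beyond counting error. The median was again -0.25, against -0.01 over all genes, and was -0.12 with TPM, where that of all genes was 0.11. Across both genotypes 6 members were lower after OVA (Fos, Fosb, Junb, Egr1, Egr3 and Ier2), where 27.6% of 18352 genes were, although for Fosb both intervals and for Egr3 the WT interval included 0. Nr4a1 and Atf3 were above 0 in both genotypes, where 25.7% of genes were, and Jun and Egr2 had opposite signs, as did 46.7%.

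**Figure D3:**
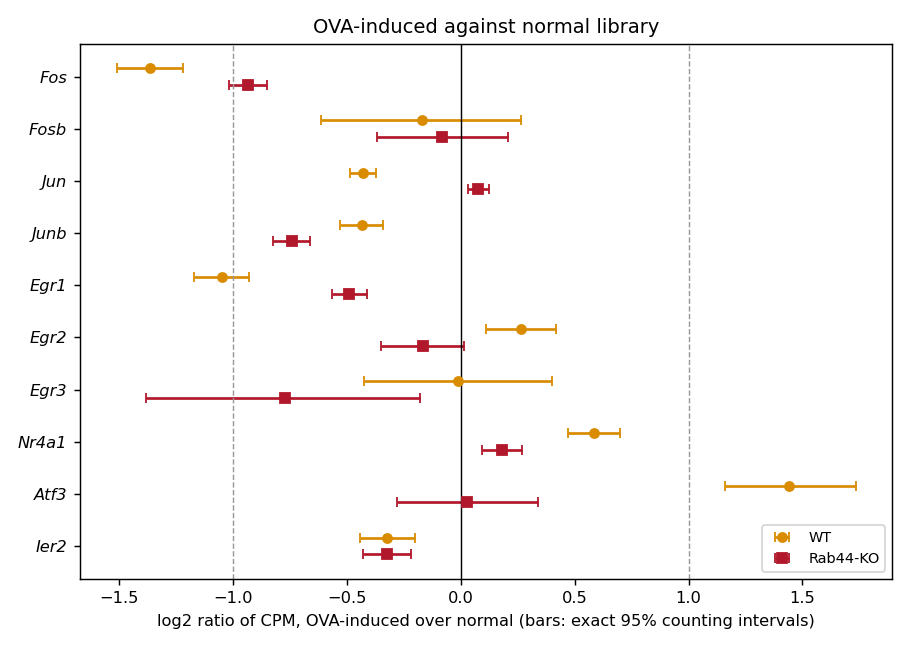
Log2 ratio of CPM of the OVA-induced over the normal library (horizontal axis) for each member in WT (circles) and Rab44-KO lung (squares), with exact 95% counting intervals and dashed lines at 2-fold. Fos and Egr1 lie past 2-fold lower and Atf3 past 2-fold higher in WT, and no member lies past 2-fold in Rab44-KO.

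The difference of the 2 Rab44-KO over WT ratios, OVA-induced minus normal, was beyond 1 on the log2 scale for Atf3 alone, at -1.41 with a counting SE of 0.21. Egr3 was at -0.76 (SE 0.36), Egr1 was at 0.56 (SE 0.072), Jun at 0.51 (SE 0.037) and Fos at 0.43 (SE 0.085). Egr2 at -0.43, Nr4a1 at -0.40 and Junb at -0.31 were below 0, and Fosb at 0.09 (SE 0.26) and Ier2 at 0.00 (SE 0.082) were within counting error of 0. With housekeeping scaling every difference was higher by a like amount: Atf3 was at -1.05, Egr3 at -0.39, Egr2 at -0.07, Nr4a1 at -0.04, Junb at 0.06, Ier2 at 0.36, Fosb at 0.46, Fos at 0.79, Jun at 0.87 and Egr1 at 0.92. Under the alternatives the lowest values were -0.69 for Egr2, -0.62 for Nr4a1, -0.82 for Egr3 and -1.43 for Atf3. These differences rest on 4 single libraries and were not tested.

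The remaining genes of the pathway were read from lists written with earlier results of these data known. For every list below, the shares of all genes over 2-fold in Rab44-KO over WT are those given above. They were 2.77% higher and 2% lower in normal lung, and 8.4% and 7.34% in OVA-induced lung. A list whose counts are near these shares does not stand out from all genes. Of 12 other AP-1 subunits none was over 2-fold different in normal lung, with a median log2 ratio of Rab44-KO over WT of -0.02. In OVA-induced lung Atf7 was higher at 1.11 while Batf3 was lower at -2.24 and Batf just past 2-fold lower, with a list median of -0.16. Batf3, a factor of cross-presenting dendritic cells, had 20, 35, 113 and 24 counts, and Batf, a factor of T helper cells, had 79, 69, 199 and 100. Both thus shared with Atf3 a highest level in the OVA-induced WT library. The constitutive subunit Jund was at 232, 243, 301 and 252 CPM, also highest in OVA-induced WT, with a log2 ratio of Rab44-KO over WT of 0.07 in normal and -0.25 in OVA-induced lung.

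Among relatives of the zinc fingers and the nuclear receptor, Egr4 had no count in any library, which allows up to 3 counts in each. Nr4a3 had 35, 78, 135 and 173 counts, and was over 2-fold higher in Rab44-KO than WT in normal lung at 1.23, at 0.35 in OVA-induced lung, and over 2-fold higher after OVA in WT at 1.93 and in Rab44-KO at 1.05. Its order of libraries was that of Nr4a1 except that OVA-induced WT lay above normal Rab44-KO. Nr4a2 had 137, 181, 117 and 178 counts, and the log2 ratio of Rab44-KO over WT was 0.47 in normal and 0.60 in OVA-induced lung. Nab2, a corepressor of EGR proteins, was at -0.65 in OVA-induced lung.

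Of 17 other immediate-early factors, 14 were above 0 in normal lung, where 50.8% of all genes were, with a median of 0.23. Btg2, an antiproliferative gene, was over 2-fold higher in the Rab44-KO library at 1.05, where 2.77% of all genes were. In OVA-induced lung 11 were above 0, where 48.1% of all genes were, with a median of 0.22. Csrnp1 at 1.21 and Npas4 were over 2-fold higher, where 8.4% of all genes were. Npas4 had only 24, 28, 24 and 68 counts. Btg2 had 4251, 8374, 3409 and 5615 counts, which is the order of Fos with normal Rab44-KO highest and OVA-induced WT lowest. Csrnp1 had 498, 649, 1387 and 3232 counts and so was higher in both OVA-induced libraries, unlike Fos.

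Of 27 feedback regulators and effectors, Zfp36 alone was over 2-fold higher in the normal Rab44-KO library, at 1.06, where 2.77% of all genes were. The list median was 0.10. Zfp36 encodes tristetraprolin, which binds AU-rich elements such as that shown for Fos, and had 2572, 5092, 2604 and 6065 counts. In OVA-induced lung Dusp1, the phosphatase that switches off MAP kinases, was at 1.76, Zfp36 at 1.21 and Errfi1 at 1.04. Dusp2 at -1.15 and Gadd45a at -1.14 were lower, and the list median was 0.03. Thus 3 of the 27 were over 2-fold higher and 2 lower, where 8.4% and 7.34% of all genes were. Dusp1 had 4307, 7681, 3899 and 13285 counts. Of 21 upstream kinases and factors, which include the MAP kinases and serum response factor, none was over 2-fold different in normal lung and Elk4 alone, at 1.33, in OVA-induced lung, with medians of -0.04 and -0.04. Srf was at 69.0, 69.8, 74.9 and 62.6 CPM, with a log2 ratio of Rab44-KO over WT of 0.02 in normal and -0.26 in OVA-induced lung.

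**Figure D4:**
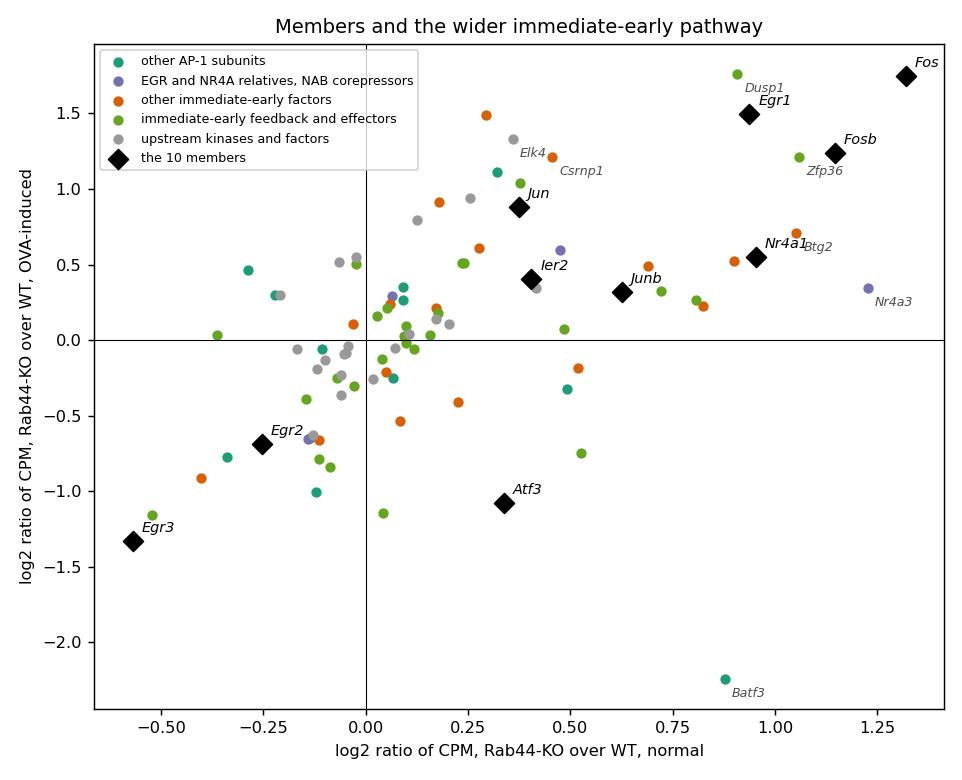
Log2 ratio of CPM of Rab44-KO over WT in normal (horizontal axis) and OVA-induced lung (vertical axis) for the 10 members (diamonds) and the genes of 5 pathway lists with at least 10 counts in their highest library (dots, by list). Dusp1 and Zfp36 lie near Fos, Fosb and Egr1 at the upper right, Btg2 and Nr4a3 lie lower on the vertical axis at 0.71 and 0.35, and the upstream list lies between -0.21 and 0.42 in normal lung.

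Heart muscle, endothelial, heat shock and platelet genes also differed between the same libraries. Of 8 heart muscle markers all were detected in every library, and their sum was 756, 835, 332 and 728 CPM, with OVA-induced WT lowest as for Fos and Egr1, but normal WT above OVA-induced Rab44-KO. Of these, 7 were over 2-fold lower in OVA-induced than in normal WT lung, where 5.2% of all genes were. Nppa led them with 341, 541, 38 and 99 counts. After OVA 4 exceeded the WT library by over 2-fold in Rab44-KO lung, where 8.4% of all genes did. The sum of 8 endothelial markers was 3766, 3750, 3014 and 4273 CPM, again lowest in OVA-induced WT, while in normal lung it was level between genotypes. The 10 heat shock chaperones summed to 1369, 1475, 2026 and 2045 CPM, high in both OVA-induced libraries. Of these, Hspa1a had 194, 567, 225 and 227 counts and Hspa1b had 165, 548, 221 and 241. Both were over 2-fold higher in the normal Rab44-KO library, where 2.77% of all genes were. No chaperone was over 2-fold different between genotypes in OVA-induced lung. The sum of 7 platelet markers was 61.2, 35.9, 46.9 and 92.3 CPM, lowest in normal and highest in OVA-induced Rab44-KO lung. The part of these groups in the levels of the members was not tested.

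Of 14 circadian clock genes, none was over 2-fold different between genotypes in normal lung. Of all genes 2.77% were over 2-fold higher there and 2% lower. In OVA-induced lung 3 were over 2-fold higher and 3 lower in the Rab44-KO library, where 8.4% and 7.34% of all genes were. After OVA 8 were over 2-fold lower and 2 higher in each genotype. The shares of all genes were 5.2% and 8.99% in WT, and 3.85% and 6.44% in Rab44-KO. Dbp, a clock output gene, had 4881, 4802, 1278 and 74 counts, and Bmal1 had 59, 62, 312 and 891. The hour of tissue collection is not given in the sources used here. Time of day therefore cannot be told apart from treatment, nor from genotype in OVA-induced lung. Of 10 glucocorticoid-responsive genes none was over 2-fold different between genotypes in normal lung, with a median of 0.45, and in OVA-induced lung Cdkn1a at 1.94 and Errfi1 at 1.04 were higher while Lcn2 at -1.88 and Zbtb16 at -1.08 were lower. Per1, in both of these lists and among the other immediate-early factors, had 3417, 3931, 2343 and 3594 counts. The part of both lists in the levels of the members was not tested.

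Some leukocyte lists were highest in OVA-induced WT lung, as Atf3 was, and others were not. The 8 T cell markers summed to 59.4, 61.9, 137 and 68.8 CPM and the 9 eosinophil markers to 43.8, 45.4, 128 and 50.8 CPM, both highest in OVA-induced WT like Atf3, and the 8 alveolar macrophage markers, which share Siglecf with the eosinophil list, to 698, 636, 5723 and 1186 CPM. Chil3 alone gave 91.7% of the macrophage sum in OVA-induced WT lung, and the other 7 markers summed to 343, 328, 474 and 269 CPM. Epx, which defines eosinophils, had 1 count in OVA-induced WT lung and 0 elsewhere, within the 3 counts that 0 allows, and Prg3 had 0 in both normal libraries. The 8 neutrophil markers summed to 113, 146, 582 and 757 CPM, with both OVA-induced libraries high. For fibroblasts the sums were 2597, 2602, 2554 and 2059 CPM, and for smooth muscle 1062, 1019, 1156 and 1025. For alveolar epithelium they were 22153, 21650, 29901 and 17849, or 8496, 8615, 11211 and 8559 without Sftpc. For airway epithelium they were 26100, 26527, 18372 and 21259, or 3139, 4017, 1826 and 2971 without Scgb1a1. Mast cell markers summed to 233, 279, 170 and 238 CPM, in the order of the members' sum, of which Kit gave 93.3% or more, and the other 6 summed to 7.97, 5.59, 11.3 and 6.21 CPM, highest in OVA-induced WT lung. The part of cell content in the level of Atf3 or of the other members was not tested.

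**Figure D5:**
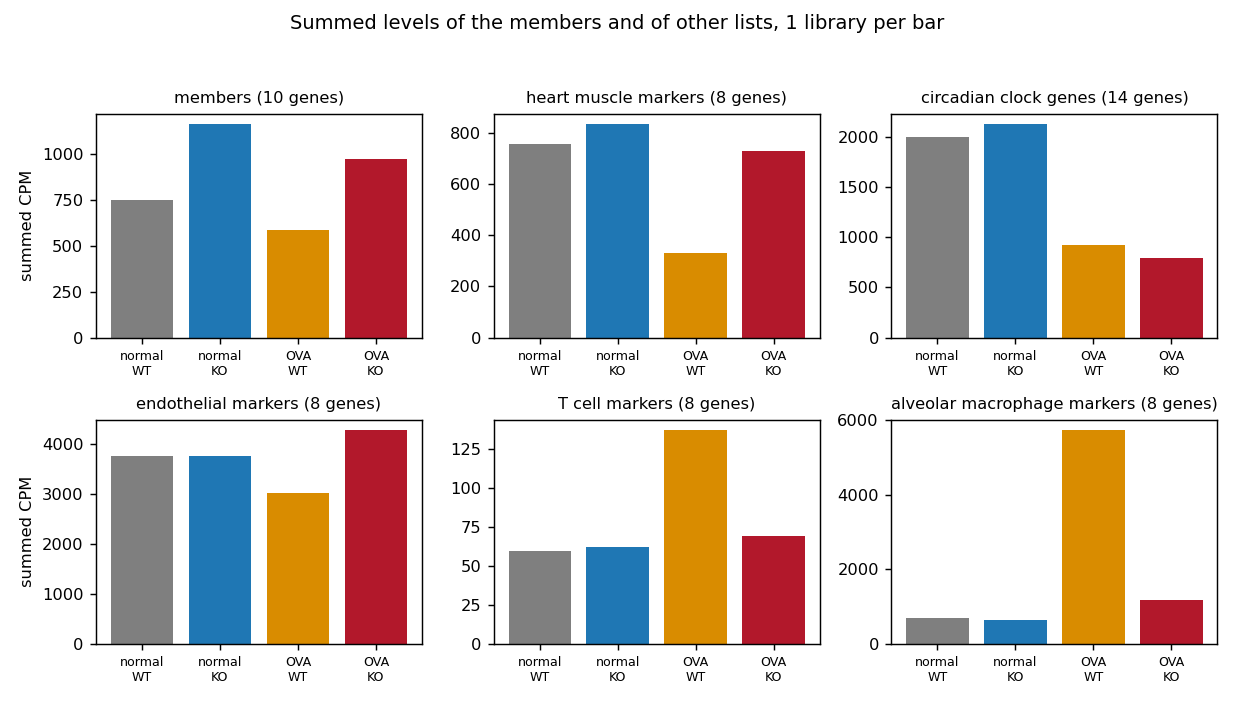
Summed CPM (vertical axes from 0) of the 10 members and of 5 other lists in the 4 libraries, 1 bar per library and no replicates. The members and the heart muscle markers are both lowest in OVA-induced WT, at 584 and 332 CPM, where T cell and alveolar macrophage markers are highest, at 137 and 5723 CPM, the latter mostly Chil3.

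Profiles over the 4 libraries were compared as the Euclidean distance between log2 CPM centred on the mean of each gene, over 13889 genes with at least 100 counts in their highest library. The 4 libraries give few constraints, and many genes lie close by. Among the members, Junb and Ier2 were the closest pair at 0.31, followed by Jun and Ier2 at 0.37 and Fos and Egr1 at 0.50. Outside the members, the genes nearest to the mean profile of the 10 were Shld2 at 0.0603, D430036J16Rik, Cand2, Gm30967, Gli1, Neu3, Shh, Zfp995, Nphp4 and Adcyap1r1 at 0.116. For single members, read after their values were seen, Fos was nearest to Ces1f at 0.24, Fosb to Zfp36 at 0.22, Egr1 to Pon1 at 0.24, Nr4a1 to Cyp1b1 at 0.0967, Egr2 to Rps14 at 0.0231 and Egr3 to Cdca7 at 0.17. Atf3 was nearest to Cd48 at 0.0789, Ccl22 at 0.10, Tedc1 and Ccr7 at 0.12, of which Ccl22 and Ccr7 are known from mature dendritic cells.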

How the data were processed

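RNA-seq of lung was deposited as a table of counts and a table of TPM for 41079 genes in 4 libraries, 1 per group, grouped by the labels. The study names HISAT2 for alignment to the build GRCm38, featureCounts for counting and DESeq2 for differential expression. Versions are not given in the sources used here. The deposited raw counts were used for every ratio. The deposited TPM, which the authors made from the same counts with 1 length per gene, were used for levels between genes and as an alternative. Gene starts in the deposited table equalled those of GRCm38 for 0 of the 10 members, so the annotation behind the counts may be of another build. Positions, overlaps and the search for shared exon sequence here refer to the GRCm38 annotation, matched by symbol.

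The study names DESeq2, but a model with 1 library in each of 4 groups leaves no residual degrees of freedom, so no p-value was made; a model that takes the genotype difference as equal in both conditions was not fitted. Counts were scaled with edgeR 4.0.16 TMM factors (R 4.3.3) over the 4 libraries, and log2 ratios used a prior count of 0.125. Exact 95% Clopper-Pearson intervals of count ratios and Poisson intervals of CPM (scipy 1.17.1) cover counting error only, since reads without molecular identifiers are not independent molecules, and say nothing of variation between mice. Shares over 2-fold were taken over genes that reached 10 counts in 1 of the 2 libraries. The calculation of the log2 ratios and their intervals was checked on simulated counts in the 4 comparisons. Those counts were drawn with Poisson error alone, which the intervals assume, so the check says nothing of variation between mice. The members and the 21 other gene lists were chosen with earlier results of these data known. Named genes were all members, up to 5 genes per list and comparison with the largest ratio past 2-fold and 100 counts or more in 1 of them (the largest where none passed), and the 10 nearest profiles; other genes were named after their values were seen. Alternatives were DESeq2 1.42.0 size factors, total counts, TMM over 2 libraries or without immunoglobulin genes, housekeeping genes, a prior count of 2, TPM with a pseudocount of 0.1, thinning, other minimums and thresholds, and removal of the trend with gene length. Motifs were searched in RefSeq promoters with Python 3.11.15, and figures drawn with matplotlib 3.10.9.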

Additional observations from a re-analysis of the deposited data

Results flagged for a closer look

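For 3 members the log2 ratios had opposite signs between groups. Jun was lower in OVA-induced than in normal WT lung, at a log2 ratio of -0.43, and slightly higher in Rab44-KO lung, at 0.08, a difference of 0.51 (Rab44-KO minus WT). Egr2 was higher after OVA in WT lung, at 0.26, and at -0.17 (-0.35 to 0.01) in Rab44-KO lung, an interval that includes 0, which gives a difference of -0.43. Atf3 was higher in the Rab44-KO than in the WT library in normal lung, at 0.34, and lower in OVA-induced lung, at -1.07, a difference of -1.41 (OVA-induced minus normal). With 1 library per group none of these differences was tested, and the sign of Egr2 in WT lung changed to -0.05 when libraries were scaled on housekeeping genes.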

How the results depend on the processing

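Each group has 1 library, and no test, paired or unpaired, was made. Of 50 log2 ratios of the members (10 members in 4 comparisons, and the difference of ratios), 45 kept their sign under all 9 alternatives that can move a ratio, and 5 did not: Fosb and Egr3 with OVA, in Rab44-KO and in WT lung, whose intervals included 0, Egr2 with OVA in WT lung (-0.05 to 0.47), and the differences for Junb and Ier2. Scaling on housekeeping genes moved the median of all genes in OVA-induced Rab44-KO over WT to 0.44 and that of OVA over normal in WT to -0.31, and TPM moved the former to 0.29, so these changes shift every gene and not the members alone. The 12 housekeeping genes had a median of -0.62 in OVA-induced Rab44-KO over WT. In OVA-induced Rab44-KO over WT the higher share of all genes over 2-fold was 53.4%, against 83.4% with housekeeping genes and 77.0% with TPM; members over 2-fold higher went from 3 to 5 with housekeeping genes, 4 with TPM, with a log2 threshold of 0.58 or with the length trend removed and 2 where the whole interval had to pass 2-fold, and those lower from 2 to 0 with housekeeping genes, 0 with TPM, 0 where the whole interval had to pass 2-fold and 1 with the length trend removed. In normal Rab44-KO over WT, members higher went from 2 to 4 with housekeeping genes, 5 with a log2 threshold of 0.58 and 1 where the whole interval had to pass. In WT, the higher share with OVA was 63.4%, against 38.5% with housekeeping genes; members higher went from 1 to 2 at 0.58 and lower from 2 to 1 by interval. In Rab44-KO, the share was 62.6%, against 72.8% with TPM, and members lower went from 0 to 3 at 0.58. With a minimum of 50 counts the genes over 2-fold in normal Rab44-KO over WT fell to 75 higher and 26 lower from 519 and 374. Beyond the scaling, thresholds and filters themselves, the cause was not tested. With 1 library per group, no interval here covers differences between mice, dissection or hour of collection.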
